A study of Mus musculus with 19 samples.

Results

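The 31 genes described here encode the constitutive subunits of the 26S proteasome, taken by symbol from a list of 7 alpha ring and 7 beta ring genes of the 20S core and 17 genes of the 19S cap (6 ATPases, 3 non-ATPase base subunits and 8 lid subunits). All 31 were rows of a table of 14707 genes, and all 31 were among the 13367 genes with a mean of at least 10 that were tested. The values come from 19 RNA sequencing libraries of mouse gastrocnemius, a calf muscle of mixed fibre type. The mice of all 4 groups were male, of a strain that the labels spell C657Bl/6J, and carried no named allele. Young lean mice (n = 4) were 6 months old and ate a diet with 12% of its kilocalories from fat, and young obese mice (n = 5) of the same age ate one with 60%. Aged lean (n = 5, 12% fat) and aged obese mice (n = 5, 60% fat) were 20 to 21 months old per the sample labels. The series' design text gives another muscle (tibialis anterior), paired-end reads and an upper age of 24 months. The sample labels, which give gastrocnemius and single-end reads, were followed here. The series title names muscle of mice both aged and obese, and the groups allow the effect of diet at each age, of age on each diet, and of the difference between these effects. Obese names the diet group, and no body weights were used here. Whether every library is from a separate mouse is not stated in the sources used here, and the p-values therefore describe the spread among these libraries, which may be technical.

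The 26S proteasome degrades proteins that carry ubiquitin chains. Its core is a stack of rings in which the outer alpha rings form a gate and the inner beta rings hold the catalytic sites, and the cap binds, unfolds and deubiquitinates the substrate before it enters. In skeletal muscle this system breaks down myofibrillar and other proteins, and its ligases and subunit genes are well known to be induced when muscle wastes. In mammals the transcription factor NRF1, encoded by Nfe2l1, raises the transcription of many subunit genes together when proteasome activity falls short.

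Because many of these genes moved together, their promoters are shown before the values. RefSeq start sites on build GRCm38.p6 gave a window of 250 bases before to 50 bases after the start for 25 of the 31 genes, 27 windows in all since Psma6 and Psmc2 have 2 each. Psmb1, Psmb2, Psmb7, Psmc3, Psmd3 and Psmd7 had no entry. Windows were matched by gene symbol, because the submitters' processing notes name another build, mm39. The 7 windows printed belong to Psmd2 and Psmd4, with the largest differences between the young groups, to Psma6 (both windows), with the lowest p there, to Psmb3, which fell in young obese and was higher in aged obese muscle, and to Psmb5 and Psmb6, with the smallest differences. They lie at chr16:20651402-20651701, plus strand for Psmd2, chr3:95042565-95042864, minus strand for Psmd4, chr12:55383972-55384271, plus strand and chr12:55398575-55398874, plus strand for Psma6, chr11:97703184-97703483, plus strand for Psmb3, chr14:54617946-54618245, minus strand for Psmb5 and chr11:70525107-70525406, plus strand for Psmb6. Capitals mark 3 motifs on either strand: CCAAT (the CCAAT box), TGACNNNGC (the core of the antioxidant response element that NRF1 and its relatives bind) and CCGGAAG (a core of sites for ETS factors).
Psmd2: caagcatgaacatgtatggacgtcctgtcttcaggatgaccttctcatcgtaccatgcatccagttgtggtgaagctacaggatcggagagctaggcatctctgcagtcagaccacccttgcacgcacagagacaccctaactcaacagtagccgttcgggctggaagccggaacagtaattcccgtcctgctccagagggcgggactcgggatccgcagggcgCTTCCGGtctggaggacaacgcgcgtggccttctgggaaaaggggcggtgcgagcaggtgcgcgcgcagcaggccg
Psmd4: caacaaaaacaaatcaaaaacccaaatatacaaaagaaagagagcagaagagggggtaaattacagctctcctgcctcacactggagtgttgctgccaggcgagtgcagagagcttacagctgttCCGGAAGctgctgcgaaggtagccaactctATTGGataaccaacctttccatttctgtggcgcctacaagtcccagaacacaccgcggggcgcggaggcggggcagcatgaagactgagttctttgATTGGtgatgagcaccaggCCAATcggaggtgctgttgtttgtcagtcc
Psma6: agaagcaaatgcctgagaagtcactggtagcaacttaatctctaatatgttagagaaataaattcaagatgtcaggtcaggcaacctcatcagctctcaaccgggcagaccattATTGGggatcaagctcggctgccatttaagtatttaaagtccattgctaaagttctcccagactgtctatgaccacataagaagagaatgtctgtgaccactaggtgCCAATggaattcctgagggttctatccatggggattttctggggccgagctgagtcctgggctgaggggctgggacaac
Psma6: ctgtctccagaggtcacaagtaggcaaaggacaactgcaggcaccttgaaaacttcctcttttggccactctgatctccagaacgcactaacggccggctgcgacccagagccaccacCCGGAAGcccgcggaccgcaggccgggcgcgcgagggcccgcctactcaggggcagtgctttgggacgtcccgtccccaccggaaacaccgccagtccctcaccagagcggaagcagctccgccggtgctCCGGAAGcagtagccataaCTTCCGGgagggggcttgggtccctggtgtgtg
Psmb3: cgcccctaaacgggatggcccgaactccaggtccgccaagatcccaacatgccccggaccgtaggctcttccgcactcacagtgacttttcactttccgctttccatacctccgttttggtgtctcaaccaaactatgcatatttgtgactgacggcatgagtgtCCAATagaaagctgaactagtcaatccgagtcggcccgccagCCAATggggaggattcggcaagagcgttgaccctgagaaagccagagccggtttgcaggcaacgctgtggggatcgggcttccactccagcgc
Psmb5: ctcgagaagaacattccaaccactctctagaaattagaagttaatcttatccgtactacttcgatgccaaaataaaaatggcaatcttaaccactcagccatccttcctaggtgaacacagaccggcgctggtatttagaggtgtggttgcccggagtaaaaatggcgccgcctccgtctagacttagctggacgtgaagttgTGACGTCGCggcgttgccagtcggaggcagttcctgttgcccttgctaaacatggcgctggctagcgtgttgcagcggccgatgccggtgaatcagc
Psmb6: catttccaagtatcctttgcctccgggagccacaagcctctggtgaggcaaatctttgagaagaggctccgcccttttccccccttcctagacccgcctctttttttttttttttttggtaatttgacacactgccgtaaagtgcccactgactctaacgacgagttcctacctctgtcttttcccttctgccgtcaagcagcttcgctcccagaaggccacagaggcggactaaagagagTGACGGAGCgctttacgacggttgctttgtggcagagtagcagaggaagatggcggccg

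The CCGGAAG motif was in 11 of the 27 windows (40.7%), against 8.86% of all 32851 RefSeq windows of this length. CCAAT was in 10 (37.0%, against 37.4%) and TGACNNNGC in 4 (14.8%, against 12.4%). The subunit windows also had a higher median GC content, 56.7% against 52.7%, and the part of base composition in the motif shares was not tested. Among the windows printed, TGACNNNGC is in those of Psmb5 and Psmb6, and CCGGAAG or its complement is in those of Psmd2 and Psmd4 and in the second window of Psma6, while the first holds CCAAT alone. Outside the windows printed, TGACNNNGC is in those of Psmc6 and Psmd12, both called lower in young obese muscle. CCGGAAG is there in those of Psmc2, Psmc6, Psmd6 and Psmd12, which were called lower too, and of Psmc1, Psmd11 and Psmd13, which were not. These are matches of letters, not shown sites, and whether the motifs go with the changes described below was not tested.

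The subunits were abundant transcripts. The authors' normalized values of a library summed to 15.4 to 17.7 M, and the 31 genes held 0.289 to 0.444% of that sum. Divided by transcript length, the subunits' mean levels over the 19 libraries ran from 289 per kilobase for Psma2 of the alpha ring to 3273 for Psmd8 of the lid, an 11.3-fold range around a median of 1201. By this per-length level the beta ring (978 to 2265) lay in a narrower range than the lid (442 to 3273). The transcript lengths are those of 1 principal GENCODE transcript per gene, the longest of the best principal rank. The levels between genes are therefore approximate where another transcript is used. Psma2 and Psma3, with the lowest levels, were given 2911 and 2846 bases, and the other alpha ring genes 914 to 1239. Many subunit genes have processed pseudogenes, and how reads shared with such copies were assigned is not given in the sources used here.

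All 10 muscle fibre markers were present and none was at 0 in any group, with summed values of 2509758 to 3410448 per library. Young lean 1 and young obese 2 correlated slightly less with their own group (mean r across genes 0.972 and 0.973) than with the other groups (0.973 and 0.976). Tendon markers set the young obese libraries apart: the 10 genes summed to 13331 to 32636 there, and to 5698 to 9738 in young lean, 3643 to 11434 in aged lean and 3933 to 9625 in aged obese libraries, with no defining marker at 0. Embryonic myosin, Myh3, was at 925 in young lean 3 and at 1467 in young obese 3, and at 42 to 349 in the other libraries.

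Diet in young muscle gave the pattern with the most calls. The model shares 1 estimate of the spread per gene across the 4 groups. In young obese compared with young lean muscle 19 of the 31 subunit transcripts fell, none rose and 12 did not pass, at a Benjamini-Hochberg adjusted p under 0.05 from limma over all genes tested. Fold changes here and below are on the log2(value + 1) scale, and every adjusted p comes from the same limma fit. Of all 13367 genes 5.33% fell and 5.7% rose by the same test, and 11% changed in either direction. All 31 fold changes were negative, with a median log2 fold change of -0.32 against 0.01 over all genes, and they ran from -0.63 for Psmd2 to -0.07 for Psmb5. For 13 subunits every young obese library lay below every young lean library, which held for 4.25% of all genes, and 3.54% of all genes lay above without overlap. In bulk muscle, fewer cells of a type and less RNA per cell cannot be told apart.

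**Figure D1:**
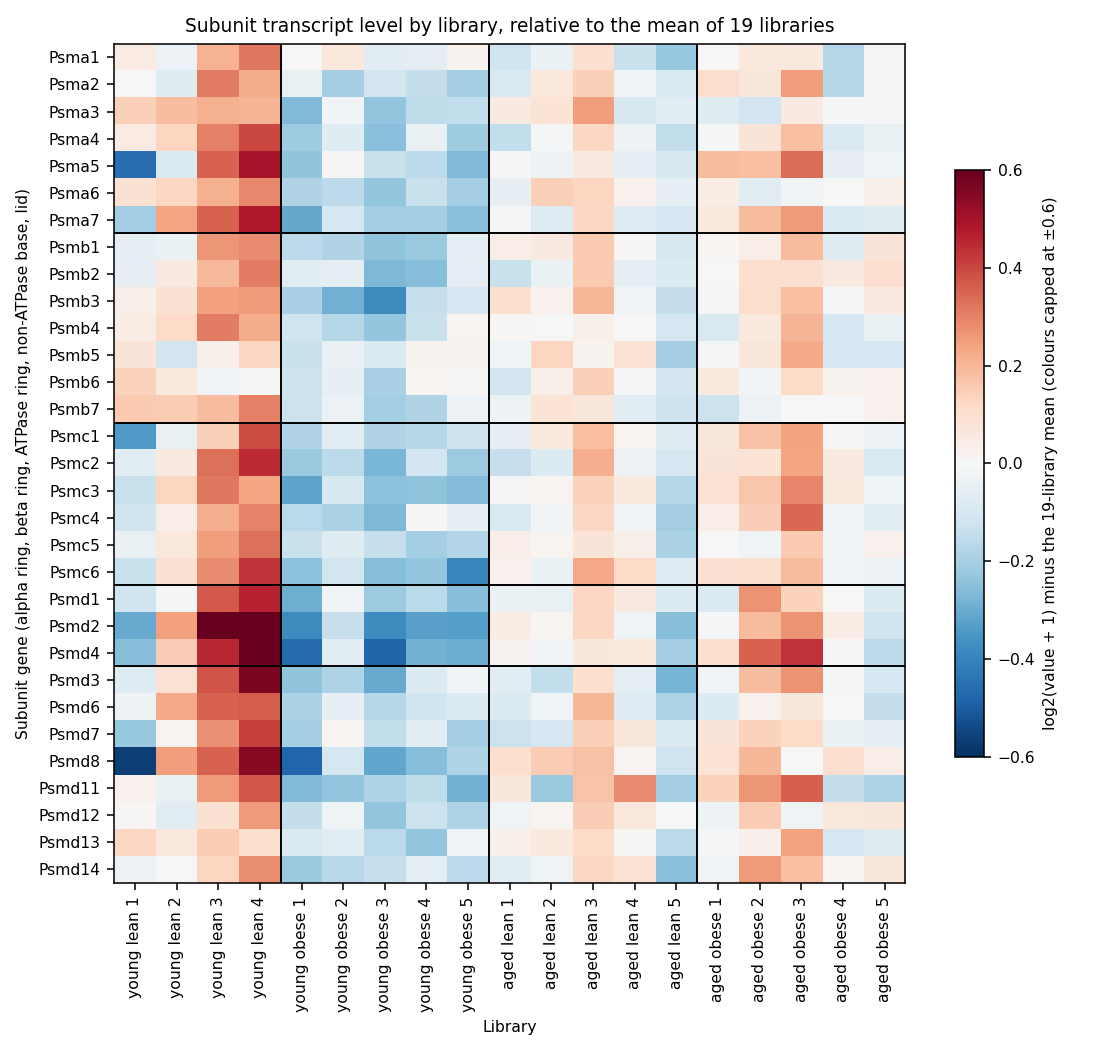
Each row is a subunit gene and each column a library, and colour gives log2(value + 1) minus the gene's mean over the 19 libraries, capped at ±0.6. Young obese libraries are mostly blue and young lean 3 and 4 mostly red, with library medians of 0.26 and 0.32, while young lean 1 (-0.05) is mixed.

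The alpha ring, whose amino-terminal tails close the gate of the core, had 4 of 7 genes that fell, Psma3, Psma4, Psma6 and Psma7. Psma6 had values of 1547, 1582, 1683 and 1773 in young lean and of 1282, 1304, 1238, 1324 and 1259 in young obese libraries. The groups did not overlap, and the transcript fell by 0.36 on the log2 scale (SE 0.06, limma adjusted p = 0.00172; lower in 5 of 5 obese libraries), the lowest p of the 31. Psma3 had values of 1027, 1058, 1078 and 1070 in young lean and of 774, 919, 789, 837 and 839 in young obese libraries. It too was without overlap and fell by 0.35 (SE 0.07, adjusted p = 0.00616), and Psma4 fell by 0.38 (SE 0.08, adjusted p = 0.00829). Psma7 fell by 0.43 (SE 0.11, adjusted p = 0.0164), but its lowest young lean value, 819 in young lean 1, lay within the young obese range of 764 to 879. Psma1 (-0.14), Psma2 (-0.26, adjusted p = 0.0637) and Psma5 (-0.23, adjusted p = 0.272) did not pass, and Psma5 varied most within young lean muscle, from 382 in young lean 1 to 737 in young lean 4.

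The beta ring had 5 of 7 genes that fell, and the exceptions were 2 of its 3 catalytic subunits. Psmb7, the trypsin-like catalytic subunit, had values of 2401, 2395, 2450 and 2662 in young lean and of 1969, 2104, 1875, 1903 and 2102 in young obese libraries. The groups were separate, and Psmb7 fell by 0.32 (SE 0.06, adjusted p = 0.00456). Psmb5, the chymotrypsin-like subunit, stood at 1138, 998, 1098 and 1173 in young lean and at 981, 1046, 1014, 1094 and 1094 in young obese libraries, which overlap (-0.07, SE 0.08, adjusted p = 0.566). Psmb6, the caspase-like subunit, overlapped as well (-0.12, SE 0.06, adjusted p = 0.233). Whether these 2 differ from Psmb7 in their response was not tested. Psmb3, a structural subunit, had values of 1026, 1068, 1189 and 1198 in young lean and of 875, 821, 771, 909 and 933 in young obese libraries. Its groups were separate and it fell by 0.38 (SE 0.08, adjusted p = 0.00656). The other structural subunits Psmb4 (-0.30), Psmb1 (-0.28) and Psmb2 (-0.27) fell with adjusted p of 0.0131, 0.0273 and 0.0324.

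**Figure D2:**
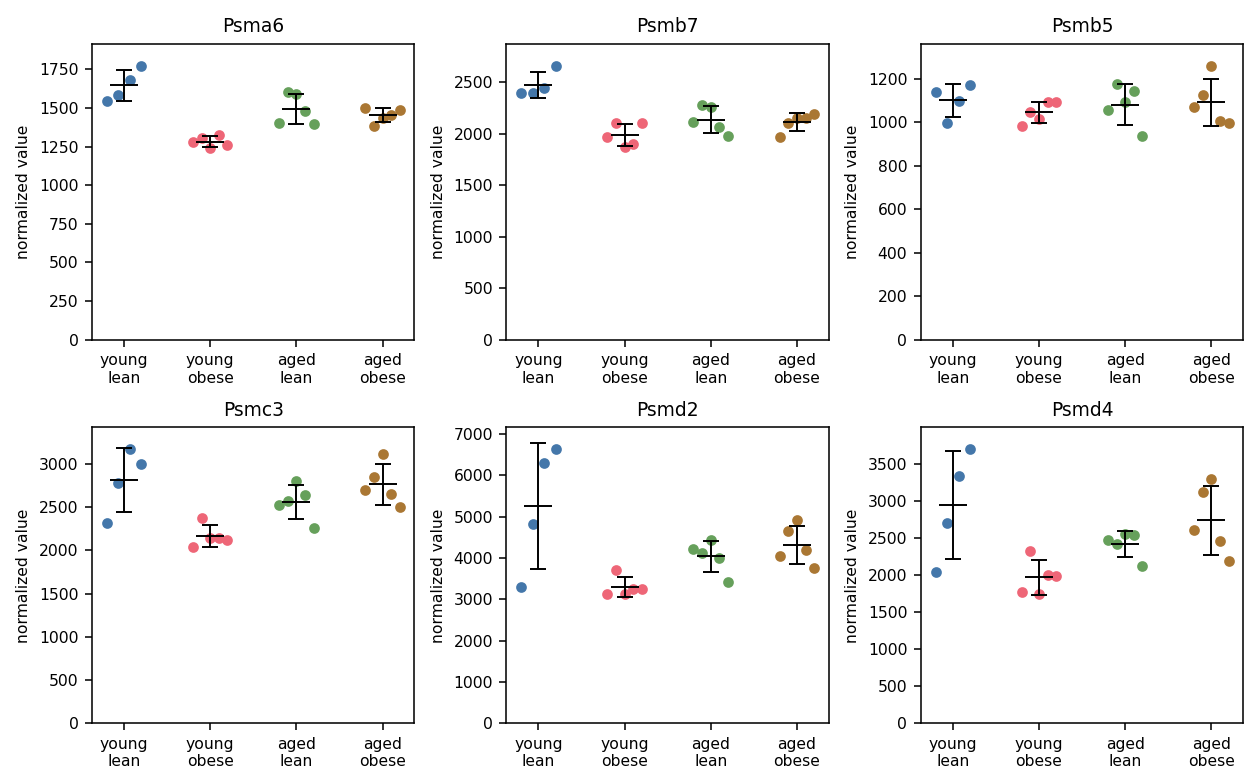
Points are libraries, with the mean and SD of each group as a dash and bars, and the vertical axis is the authors' normalized value from 0. Psma6 and Psmb7 separate the young groups, Psmb5 does not, and the young lean values of Psmd2 spread from 3300 to 6625.

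The ATPase ring, which unfolds substrates and opens the gate of the core, had 4 of 6 genes that fell. Psmc6 had values of 1287, 1503, 1714 and 1904 in young lean and of 1188, 1306, 1180, 1202 and 1074 in young obese libraries. Only young obese 2 reached the lowest young lean value, and Psmc6 fell by 0.42 (SE 0.09, adjusted p = 0.011). Psmc2 had values of 2026, 2195, 2660 and 2890 in young lean and of 1813, 1896, 1749, 1954 and 1822 in young obese libraries. These were separate, with a fall of 0.39 (SE 0.09, adjusted p = 0.0148). Psmc3, whose tail docks in the alpha ring, fell by 0.37 (SE 0.09, adjusted p = 0.0123) and Psmc5 by 0.29 (SE 0.07, adjusted p = 0.0167). Psmc1 (-0.18, adjusted p = 0.256) and Psmc4 (-0.24, adjusted p = 0.0973) did not pass.

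All 3 non-ATPase subunits of the base fell, and Psmd2 and Psmd4 had the largest differences of the 31 subunits. Psmd2, a scaffold that docks ubiquitin shuttles, had values of 3300, 4832, 6305 and 6625 in young lean and of 3121, 3703, 3138, 3252 and 3240 in young obese libraries. Young lean 1 lay inside the obese range, the other 3 above it, and Psmd2 fell by 0.63 (SE 0.15, adjusted p = 0.0123), to 0.647 of the lean level. Psmd4, a ubiquitin receptor, had values of 2046, 2705, 3340 and 3696 in young lean and of 1776, 2329, 1749, 2004 and 1989 in young obese libraries. It fell by 0.55 (SE 0.14, adjusted p = 0.0208), with overlap through the same lean library. Psmd1, the other large scaffold, fell by 0.36 (SE 0.11, adjusted p = 0.034).

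The lid, which removes ubiquitin chains, had 3 of 8 genes that fell. These were Psmd3 (-0.41, adjusted p = 0.0274), Psmd6 (-0.35, adjusted p = 0.0128) and Psmd12 (-0.22, adjusted p = 0.04), all structural. Psmd14, the deubiquitinating enzyme, stood at 664, 676, 741 and 820 in young lean and at 579, 603, 614, 651 and 606 in young obese libraries. Its groups did not overlap, yet it did not pass (-0.24, SE 0.08, adjusted p = 0.0629), and neither did its partner Psmd7 (-0.24, adjusted p = 0.121). Psmd13 (-0.22, adjusted p = 0.0503) and Psmd11 (-0.38, adjusted p = 0.0519), which clamps the lid to the core, missed the threshold narrowly. Psmd8 had the widest young lean spread of the lid, from 3352 in young lean 1 to 7225 in young lean 4, and at -0.41 (SE 0.15) had an adjusted p of 0.0749. By part, 9 of 14 core and 10 of 17 cap genes fell, with median fold changes of -0.29 and -0.36.

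The median subunit was highest in young lean 3 and young lean 4, and the count of calls changed with the libraries left out. Relative to the mean of the 19 libraries, the median subunit deviation was -0.05, 0.06, 0.26 and 0.32 in young lean 1 to 4 and lay between -0.23 and -0.07 in the 5 young obese libraries. Young lean 4 was the highest of all 19 libraries for 23 subunits, and young lean had the largest log2 SD of the 4 groups for 21. The median log2 SD of the subunits was 0.185 in young lean, 0.0854 in young obese, 0.114 in aged lean and 0.115 in aged obese libraries. The model pools these spreads. For Psmd2 the log2 SD was 0.46 in young lean and 0.10 in young obese libraries. A pooled spread tends to lie below that of the widest group. The SE and p-values of comparisons with young lean muscle may therefore be too small for such subunits. Without young lean 3 the count of subunits that fell was 9, and without young lean 4 it was 10. Without both of them, a pair left out after the values were seen and because of these genes' levels, 1 subunit fell, 29 of 31 fold changes were negative and their median was -0.17. Psma5 (0.11) and Psmc1 (0.049) were then positive, though neither passed. Without young lean 1 and young lean 2, chosen in the same way, 28 fell and the median was -0.45. Leaving out the highest or the lowest lean libraries moves the difference by construction, so the runs without a pair are no test. Without young lean 1 alone 27 fell. The calls over all genes in these runs are not given here, so the counts do not show a loss or gain particular to the subunits. Of the 19 calls, 9 held in each of the 19 runs that left out 1 library: Psma3, Psma4, Psma6, Psmb3, Psmb7, Psmc3, Psmc6, Psmd2 and Psmd6.

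Within young lean muscle the libraries stood in a like order for other genes. Fbxo32, the muscle ubiquitin ligase atrogin-1, had values of 1520, 6262, 12725 and 23107 in young lean 1 to 4, a spread wider than in any other group, and of 5670 to 9583 in young obese libraries. The ligase Trim63, or MuRF1, was at 1718, 2525, 3217 and 6110 in the same young lean libraries and at 3594, 3423, 5032, 3062 and 3165 in young obese libraries. In both genes young lean 1 was the lowest and young lean 4 the highest of the 4, as for the median subunit. This order did not carry over to the obese libraries: young lean 1 lay below all of them for both ligases, and young lean 2 for Trim63, while the median subunit was higher in these 2 lean libraries than in any young obese one. A clock score, the log2 mean of the clock activators (Arntl, Npas2, Clock) less that of 6 clock output genes, was -1.32 in young lean 1 and -2.94, -2.88 and -3.20 in the other 3. The tendon score, the mean log2 level of 6 tendon genes, was 5.99 to 7.17 in young lean and 7.67 to 9.13 in young obese libraries, without overlap. Of the 10 tendon markers 8 rose in young obese muscle, and 5 of 10 fibro-adipogenic progenitor markers (stromal cells that lie between the fibres) rose. The progenitor markers summed to 27805 to 38761 in young lean and 33894 to 48360 in young obese libraries. With the tendon score in the model no subunit passed and the median was -0.29, and with the clock score 2 fell and the median was -0.28. No gene of the whole table passed with the tendon score, so that fit could make no call, and tendon content and diet cannot be told apart in these groups. The part of the clock genes and ligases in the result was not tested further. Fitted on the 2 young groups alone, 2 subunits fell, at the same median.

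**Figure D3:**
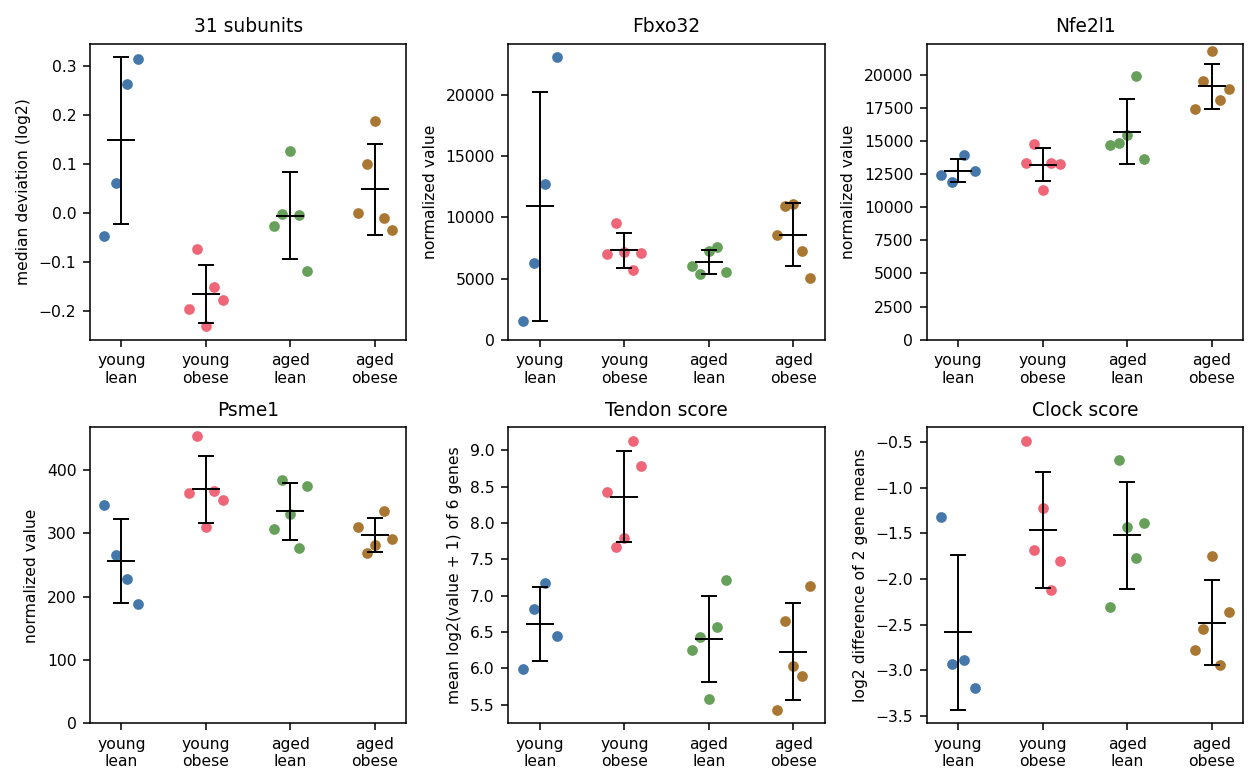
Points are libraries, with each group's mean and SD. The panels give the median log2 deviation of the 31 subunits, normalized values of Fbxo32, Nfe2l1 and Psme1, and the tendon and clock scores in log2 units. Fbxo32 spreads from 1520 to 23107 in young lean muscle, and the tendon score sets young obese muscle apart.

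In aged muscle diet gave no such pattern. Aged obese compared with aged lean muscle had no subunit past the threshold by limma, and none had an unadjusted p under 0.05. Of all genes 0.292% were called there and 1522 had an unadjusted p under 0.05. Fold changes ran from -0.08 for Psma3 to 0.16 for Psmd4 with a median of 0.05, and 28 of 31 were positive. Psma6, the clearest fall in young muscle, stood at 1404, 1606, 1587, 1479 and 1395 in aged lean and at 1498, 1384, 1435, 1454 and 1489 in aged obese libraries, ranges that overlap (-0.04, SE 0.05, adjusted p = 0.837). Psmd4 stood at 2478, 2414, 2560, 2543 and 2123 in aged lean and at 2614, 3127, 3296, 2457 and 2191 in aged obese libraries (0.16, SE 0.14, adjusted p = 0.705). No subunit separated these groups without overlap, against 1.82% of all genes lower and 1.86% higher.

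**Figure D4:**
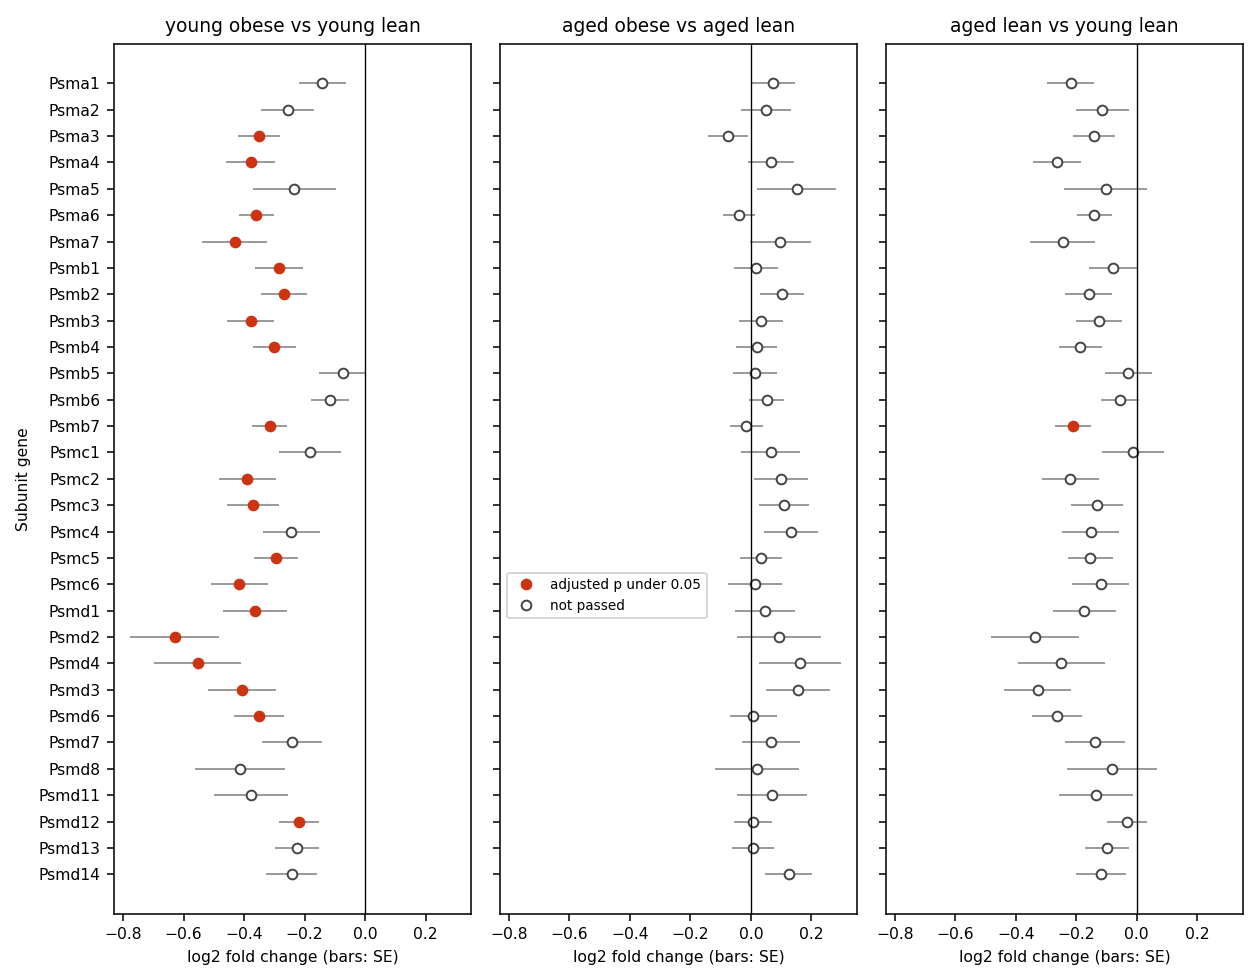
Log2 fold changes of the 31 subunits with SE bars in 3 comparisons, filled where the adjusted p was under 0.05. All values lie left of 0 for diet in young muscle, most lie slightly right of 0 for diet in aged muscle (median 0.05), and the age comparison on the lean diet lies between (median -0.14).

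Whether the diet effect differed with age was tested as an interaction, the effect in aged minus that in young muscle. It was positive for all 31 subunits, with a median of 0.37, and 5 passed: Psma4 (0.45, SE 0.11), Psma6 (0.32, SE 0.08), Psmb3 (0.41, SE 0.11), Psmc2 (0.49, SE 0.13) and Psmc3 (0.48, SE 0.12), each with an adjusted p between 0.0391 and 0.0476. Of all genes 1.29% passed upward, 1.69% downward and 2.98% in either direction. Psmd4 and Psmd2, each at 0.72 (SE 0.20), missed with adjusted p of 0.0534 and 0.0551. None of the 5 held its call in every run without 1 library. Calls over all genes in such runs are not given here or in the paragraphs below. The counts therefore do not show a loss or gain particular to the subunits. The count was 0 without young lean 2, 3 or 4, young obese 1 or 3, aged lean 1 or 5, or aged obese 1 or 3. It rose to 15, 13, 9 and 23 when young obese 2, aged lean 3, aged obese 5 or young lean 1 was left out, and in the other 6 runs it was 1. Without both young lean 3 and 4, the pair chosen for these genes' levels, it was 0, with a median of 0.23. Leaving out these high libraries lowers the interaction by construction, so that run is no test. Tendon, progenitor and macrophage markers had interactions of the opposite sign. They were negative for 10 of 10 tendon markers (median -1.60, 2 passed), 10 of 10 progenitor markers (median -0.84, 4 passed) and 10 of 10 macrophage markers (median -1.52, 1 passed). The interactions of the other cell type markers are not described here. With no marker at 0 in any group, the macrophage markers summed to 1898 to 5470 in young lean, 2820 to 12070 in young obese, 3878 to 14262 in aged lean and 2768 to 5127 in aged obese libraries. The part of the progenitor cells and macrophages in the result was not tested.

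With age on the lean diet the subunits lay lower in aged muscle, mostly within the spread. All 31 fold changes were negative with a median of -0.14. An unadjusted p under 0.05 was found for 10 of the 31 subunits and for 2809 of all 13367 genes. Past the adjusted threshold was 1 subunit, against 1.99% of all genes that fell, 2.09% that rose and 4.08% called. This was Psmb7, which stood at 2113, 2280, 2264, 2064 and 1976 in aged lean libraries, all below the young lean minimum of 2395. It fell by 0.21 (SE 0.06, adjusted p = 0.0498) and lost that call in 15 of 19 runs without 1 library. The largest differences, in Psmd2 (-0.34, adjusted p = 0.194) and Psmd3 (-0.33, adjusted p = 0.0997), did not pass. Besides Psmb7 only Psmb4 lay below young lean without overlap, 2 of 31 subunits against 3.3% of all genes, and no subunit lay above (3.16% of all genes). This comparison and the one of diet in young muscle share the young lean libraries, and without young lean 3 and 4 its median was -0.01, with 17 negative values. That pair was chosen for its high subunit levels, so leaving it out raises the median by construction and is no test. Without young lean 1 the count was 9, and without aged lean 3 it was 3. All 10 macrophage markers were higher in aged lean muscle (median 1.02), 8 with an unadjusted p under 0.05 and none past the adjusted threshold, and their part in the result was not tested.

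With age on the high-fat diet the subunits lay higher. In aged obese compared with young obese muscle 5 subunits rose, none fell and 26 did not pass, against 4.16% of all genes that rose, 4.86% that fell and 9.02% called. The fold changes were positive for 30 of 31, with a median of 0.22. Psmc3 stood at 2697, 2854, 3120, 2650 and 2498 in aged obese libraries, all above the young obese range of 2043 to 2377, and rose by 0.35 (SE 0.08, adjusted p = 0.0121). Psmb3 stood at 997, 1078, 1136, 995 and 1039 in aged obese libraries, above every young obese value, and rose by 0.29 (SE 0.07, adjusted p = 0.0186). Psmd4 rose by 0.47 (SE 0.14, adjusted p = 0.0371) with overlap, Psmc6 by 0.31 (SE 0.09, adjusted p = 0.0344) and Psma6 by 0.18 (SE 0.05, adjusted p = 0.0433). For 12 subunits the aged obese libraries lay above all young obese ones, against 4.51% of all genes, and no subunit lay below (4.15% of all genes). Of the 5 calls only Psmc3 held in every run without 1 library. The count was 1 without young obese 3 or aged obese 3, 2 without young obese 1, 4 or 5 or aged obese 1 or 2, 8 without young lean 4 and 14 without young lean 1. It was 0 with the tendon or the clock score, at medians of 0.20 and 0.16. Tendon and progenitor markers moved with this contrast too. Of the 10 tendon markers 9 fell. Of the 10 progenitor markers 6 fell and all 10 fold changes were negative (median -0.53), with summed values of 25351 to 32810 in aged obese libraries, below every young obese one. The part of the progenitor cells in the result was not tested.

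Across both factors, aged obese compared with young lean muscle had 1 subunit that fell, Psmb7 (-0.23, SE 0.06, adjusted p = 0.03), against 2.33% of all genes that fell and 5.58% called. The median was -0.09. The count was 0 without young lean 3 or 4 or without aged obese 1, 2 or 3, and it was 2 without aged lean 3 and 6 without young lean 1. Psmb7, Psma3 and Psma6 lay below young lean without overlap, 3 of 31 against 4.32% of all genes, and no subunit lay above (4.62%). Taking the 4 group means, young lean was highest for 28 subunits and young obese lowest for 30. Aged lean and aged obese, which lay between them for most subunits, did not differ beyond their spread for any subunit by limma.

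The other genes of the pathway come from lists chosen with earlier results of these data known. The 3 immunoproteasome genes, which encode the catalytic subunits that interferon induces, were not called in any comparison. Psmb8 had values of 59.5 to 87.5 in young lean and of 70.4 to 109 in young obese libraries (adjusted p = 0.747). Psmb9 was at 17.1 to 28.2 and 25.8 to 68.8 (adjusted p = 0.152), and Psmb10 was at 110 to 186 and 138 to 230 (adjusted p = 0.28). Against young lean muscle all 3 fold changes were positive in young obese, aged lean and aged obese muscle. The largest was that of Psmb9 in aged lean muscle (0.96, adjusted p = 0.0919). Of 8 assembly genes in the table, such as the core maturation factor Pomp, none was called in any comparison, and for diet in young muscle 5 of 8 fold changes were negative (median -0.03). Paaf1, a further member of that list, had no row.

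Among 7 regulators, 1 rose and none fell in young obese muscle, where 5.7% of all genes rose. Of the 7 fold changes 4 were negative, with a median of -0.05. The call was for Psme1, a subunit of the PA28 activator that opens the core without ubiquitin, which went the other way from the subunits. It had values of 345, 265, 228 and 189 in young lean and of 364, 454, 309, 366 and 352 in young obese libraries. Young lean 1 alone lay inside the obese range, and Psme1 rose by 0.55 (adjusted p = 0.0215), a call lost without young lean 3 or 4. The order of the young lean libraries, 1 highest and 4 lowest, was the reverse of that of the median subunit. Its partner Psme2 rose by 0.41 in aged obese compared with young lean muscle (adjusted p = 0.0316). Psme3ip1, which binds the nuclear activator PA28 gamma, rose by 0.34 in aged obese compared with young obese muscle (adjusted p = 0.0244). These calls were lost in 7 and 4 of 19 runs without 1 library.

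Of 8 other parts or partners of the 26S particle in the table, Ecpas, a scaffold that binds the assembled proteasome, fell by 0.49 in young obese muscle (adjusted p = 0.00869). Of the 8 fold changes there 6 were negative, with a median of -0.25, and 5 had an unadjusted p under 0.05, as had 3821 of all 13367 genes. Their interactions were positive for 6 of 8, with a median of 0.24. Ecpas had values of 5339, 6394, 7209 and 5892 in young lean and of 4143, 5591, 3950, 4336 and 4112 in young obese libraries. Young obese 2 was the only obese library above the lowest lean one. Ecpas also fell by 0.40 with age on the lean diet (adjusted p = 0.0359), and its interaction was 0.64 (adjusted p = 0.0264). Of the 19 runs without 1 library, none ended the first of these calls, 7 ended the second and 5 the third. Usp14, a deubiquitinase of the cap, was not called, at 865 to 1151 in young lean and 826 to 882 in young obese libraries (adjusted p = 0.0848).

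Among 11 shuttle and VCP genes reported, 2 fell in young obese muscle, where 5.33% of all genes fell. All 11 fold changes were negative, with a median of -0.21 against 0.01 over all genes. An unadjusted p under 0.05 was found for 5 of them and for 3821 of all 13367 genes. Against young obese muscle 9 of 11 were positive in aged obese muscle (median 0.14), and the interaction was positive for 10 of 11 (median 0.28). One was Faf1, a VCP cofactor, with values of 1593, 1963, 2068 and 2047 in young lean and of 1507, 1510, 1358, 1400 and 1385 in young obese libraries. The groups were separate, and Faf1 fell by 0.41 (adjusted p = 0.00475). The other was the shuttle Rad23b, named after its value was seen (-0.25, adjusted p = 0.0477). Faf1 was also lower in aged obese than in young lean muscle, by 0.30 (adjusted p = 0.0291). The VCP cofactors Nploc4 (0.50, adjusted p = 0.0182) and Nsfl1c (0.27, adjusted p = 0.024) rose in aged obese compared with young obese muscle. Ubxn1, a VCP cofactor as well, fell there by 0.25 (adjusted p = 0.0364), and by 0.27 in aged obese compared with young lean muscle (adjusted p = 0.0446), and lost these calls in 8 and 12 of 19 runs without 1 library. The call of Faf1 in young muscle held in all 19, its call in aged obese against young lean muscle was lost in 6, and those of Nploc4 and Nsfl1c were lost in 2 and 4.

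Of 10 transcription factors and their processing enzymes, only Nfe2l1 was called in any comparison. It stood at 12397, 11909, 13935 and 12761 in young lean and at 13328, 14774, 11294, 13298 and 13298 in young obese libraries, which overlap (0.05, adjusted p = 0.793). In aged lean libraries it was at 14690, 14830, 15413, 19904 and 13610, and in aged obese libraries at 17387, 19519, 21799, 18075 and 18892. All 5 aged obese values lay above every young value, and Nfe2l1 rose by 0.54 against young obese (adjusted p = 0.00219) and by 0.58 against young lean muscle (adjusted p = 0.00213). Both calls held in all 19 runs without 1 library, and the relation of Nfe2l1 to the subunits was not tested.

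Of 17 ligases and conjugating enzymes linked to muscle wasting, 1 rose and 2 fell in young obese muscle, near the shares of all genes that did so (5.7% and 5.33%), and the median was -0.03. Fbxo30, the ligase MUSA1, rose by 0.47 (adjusted p = 0.0239; lost in 4 of 19 runs without 1 library), and Ubr2, a ligase of the N-end rule, fell by 0.24 (adjusted p = 0.0452; lost in 10). Nedd4, a ligase named after its value was seen, fell by 0.25 (adjusted p = 0.0286). Ubr2 also fell with age on the lean diet, by 0.35 (adjusted p = 0.0138; lost in none). The conjugating enzyme Ube2b fell there too, by 0.29 (adjusted p = 0.021; lost in 4), and Fbxo21 rose by 0.38 (adjusted p = 0.0466; lost in 15). In aged obese compared with young lean muscle Fbxo21 rose by 0.60 (adjusted p = 0.00231; lost in none). Ubr2 fell there by 0.33 (adjusted p = 0.013; lost in none) and Ube2b by 0.26 (adjusted p = 0.0286; lost in 5). Against young obese muscle Fbxo21 rose by 0.35 in aged obese muscle (adjusted p = 0.0315; lost in 6). Fbxo32 and Trim63 were not called in any comparison (adjusted p = 0.989 and 0.607 for diet in young muscle).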

How the data were processed

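RNA of 19 gastrocnemius libraries was sequenced, and RNA with an integrity number under 7 was left out, per the labels' protocols. The deposited table holds 1 normalized signal value per gene and library, made by the authors. The submitters' processing notes list Partek, STAR (2.78a), DESeq2 and genome build mm39 without saying what each was used for. For the annotation and the counter, nothing is stated in these sources. The deposited values were not whole reads (295 lay between 0 and 0.01), so no count test was run and the depth in reads is unknown. The precision that depth gives is therefore not stated.

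Of 14707 genes, 1340 whose mean was under 10 were dropped. The limma-trend method of limma 3.58.1 (R 4.3.3) was then applied to log2(value + 1). This scale understates the change of low genes. The model had 4 group means over all 19 libraries, 15 residual and 4.37 prior degrees of freedom, and gave 5 pairwise comparisons and the interaction. P-values were adjusted by Benjamini-Hochberg over 13367 genes within a comparison. The code was tested on simulated data. Transcript lengths came from GENCODE M21 and promoter windows from RefSeq, both on GRCm38. Figures used Python 3.11.15 and matplotlib 3.10.9.

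All 31 subunits were reported. From each pathway list, up to 4 called members with the lowest p were named, plus Nfe2l1, Psmb8, Psmb9, Psmb10, Usp14, Fbxo32 and Trim63. A few genes of these lists are not reported here and do not enter the lists' counts. The members, lists, scores and alternatives were chosen with earlier results of these data known. Alternatives covered the pseudocount, the filter, scaling, library weights, robust moderation, the groups alone, left-out libraries and the tendon and clock scores. Of these, 2 pairs of young lean libraries were left out after their subunit levels were seen, because of those levels.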

Additional observations from a re-analysis of the deposited data

Results flagged for a closer look

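Of 132 groups of values looked at, those of each subunit and of 2 summaries of the library in each sample group, 5 held a value apart. In these a single library stood far from the rest of its group, and chance flags about 1 in 20 groups. Aged lean 5 was the lowest of its group for Psmb4 (1371) and Psmc5 (1464), and aged lean 3 was the highest for Psmc2 (2464). Aged obese 3 was the highest of its group for Psmc5 (1862), and young obese 2 for Psmd2 (3703).

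The diet effect in aged muscle minus that in young muscle passed limma's test for Psma4 (0.45), Psma6 (0.32), Psmb3 (0.41), Psmc2 (0.49) and Psmc3 (0.48), and outside the subunits for Ecpas (0.64). None of these 6 calls held in every run that left out 1 library. In each case the effect in young muscle was negative.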

How the results depend on the processing

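For diet in young muscle, the 19 subunits that fell became 2 with the young groups alone, 4 without the third library of each young group, 1 without young lean 3 and 4, 2 with the clock score and 0 with the tendon score. Leaving out 1 library gave 9 to 27. The fold changes kept their sign in all of these, except those of Psma5 (0.11) and Psmc1 (0.049) without young lean 3 and 4. The pairs of young lean libraries were chosen after seeing the data and for their subunit levels, so these counts mark how far the result depends on those libraries and are no test. Calls over all genes in each setting are not given beside the counts here and below.

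For age on the lean diet, the count of 1 became 0 with no filter, quantile normalization, upper quartile scaling, robust moderation, the groups alone, either score, without the third libraries of both young groups, and without young lean 3 and 4. It was 12 with library weights, 17 without young lean 1 and 2, and 9 when young lean 1 and young obese 2 were left out. Leaving out 1 library gave 0 to 9. For aged obese against young lean muscle, the count of 1 became 7 with weights, 0 with the groups alone, 7 leaving out both young lean 1 and young obese 2, 0 without the third libraries of both young groups, 0 without young lean 3 and 4, and 12 without young lean 1 and 2. Leaving out 1 library gave 0 to 6.

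For age on the high-fat diet, the count of 5 became 18 with weights, 12 with the groups alone, 17 leaving out both young lean 1 and young obese 2, 1 without the third libraries of both young groups, 14 without young lean 3 and 4, 17 without young lean 1 and 2, and 0 with either score. Leaving out 1 library gave 1 to 14. With the groups alone this comparison had more calls than diet in young muscle, the reverse of the model with all groups. The interaction's count of 5 became 10 with a minimum mean of 50, 1 with quantile normalization, 27 with weights, 27 without young lean 1 and 2, 25 leaving out both young lean 1 and young obese 2, and 0 without the third libraries of both young groups, without young lean 3 and 4 or with either score. Leaving out 1 library gave 0 to 23. Psmd8's interaction turned to -0.10 with the clock score. Causes were not tested. For diet in aged muscle the count was 0 in every setting run.

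No paired analysis was possible because library numbers do not pair samples across the groups.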
